A study of Mus musculus with 10 samples.

Results

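Cytosolic ribosomal protein genes were followed in 10 bulk RNA libraries of ear skin from c57/Bl6 mice aged 6 to 8 weeks. The members are the genes whose symbol is Rpl or Rps with a number and at most one of the letters a, x, y and l, or Rplp with a digit, or Rpsa. The rule found 77 members, 45 of the large and 32 of the small subunit, among the 9779 genes measured in both deposited tables. In the benzamil group (n = 4) the skin received imiquimod together with benzamil, a blocker of epithelial sodium channels related to amiloride. In the DMSO group (n = 4) it received imiquimod, which activates Toll-like receptors and brings about psoriasis-like inflammation in mice, with DMSO, the solvent. The untreated group (n = 2) received neither agent. The treated groups therefore share imiquimod and differ in benzamil against DMSO, and treatment was topical for 6 days. The labels give ear skin for each library, whereas the series' design names back skin for untreated controls, so body site and treatment cannot be told apart against that group, nor can imiquimod and DMSO. Replicates are not labelled as separate animals, so each p-value reflects the spread among these libraries, and that spread may be technical.

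Ribosomal proteins assemble with ribosomal RNA into the large subunit, which joins amino acids, and the small subunit, which decodes the mRNA. Each particle holds about one copy of most of these proteins, so their mRNAs are usually made in proportion and translated together. Most of these mRNAs begin with a 5′ terminal oligopyrimidine tract (a run of C and U, known as the TOP motif), through which the growth kinase mTOR controls their translation. They are transcribed in every cell type of the skin, and growing cells generally need more of them.

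The TOP tract lies at the transcription start, so the starts of members on which the comparisons below turn are shown from RefSeq (build GRCm38.p6), from 30 bases before to 20 bases after the start, with C or T runs of 8 or more in capitals. They are Rpl7a, Rps18, Rpl39 and Rps2 (lower with benzamil than with DMSO), Rpl35 (higher with DMSO than in untreated skin) and Rpl26 and Rpl13 (lower with DMSO than in untreated skin).
Rpl7a, chr2:26910777-26910826, plus strand: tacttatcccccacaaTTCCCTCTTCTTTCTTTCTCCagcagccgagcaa
Rps18, chr17:33955646-33955695, minus strand: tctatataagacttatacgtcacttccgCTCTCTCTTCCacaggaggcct
Rpl39, chrX:37085203-37085252, minus strand: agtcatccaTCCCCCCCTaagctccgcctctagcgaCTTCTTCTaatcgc
Rps2, chr17:24720033-24720082, plus strand: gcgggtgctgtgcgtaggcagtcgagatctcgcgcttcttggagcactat
Rpl35, chr2:39005112-39005161, minus strand: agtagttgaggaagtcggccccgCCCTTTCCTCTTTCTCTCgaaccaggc
Rpl26, chr11:68901536-68901585, plus strand: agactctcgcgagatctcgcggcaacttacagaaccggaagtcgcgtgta
Rpl13, chr8:123102320-123102369, plus strand: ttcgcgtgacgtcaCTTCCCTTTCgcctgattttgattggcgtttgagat
The table held 67 starts for 56 of the 77 members, and 32 of these starts (47.8%) had such a run in this window, against 20.2% of 32784 starts of other genes. The same run on the opposite strand, 8 or more A or G, was found at 10.4% of member starts and 21.9% of the others. Of the 29 members called lower in benzamil over DMSO 24 had a start in the table and 12 of those had a run, while of the 39 members not called 28 had a start and 16 a run. A run is a match of letters and not a measured TOP tract.

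Each member was counted as reads scaled by library total and TMM factor (counts per 1000000, CPM). The libraries were made with a 3′ kit, which reads each transcript at its end, so the counts were not divided by transcript length and levels of different genes are compared only as read abundance. Libraries held 138440 to 375455 reads with benzamil, 259262 to 935714 with DMSO, and 71144 and 74614 in untreated skin. By library total alone, without TMM factor or filter, one read was worth 2.66 to 7.22 CPM with benzamil and 1.07 to 3.86 CPM with DMSO. In untreated skin it was worth 13.4 and 14.1 CPM by total alone, and 13.5 and 14.8 CPM as scaled here. The untreated libraries detected 68 and 72 of the 77 members. The filter on low counts kept 72 members, 42 large and 30 small, among 5245 genes, and left out Rps6, Rps4l, Rpl29, Rpl15 and Rpl10a. Keratinocyte markers, 8 basal and 9 suprabasal genes, were all detected in each group.

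One library stood apart. DMSO library 1, which is also the deepest, had the highest CPM of its group for 66 of the 72 tested members, and untreated library 1 the lower CPM of its pair for 58. Within the benzamil group the highest value fell in library 2 for 35 members and the lowest in library 3 or 4 for 28 and 29 members. Call counts of benzamil over DMSO by subunit, level, structure and related list are therefore also given without DMSO library 1, and the remaining counts are given with all libraries. In bulk skin, fewer cells of a type and less RNA per cell cannot be told apart.

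As a whole, the members took 2.74%, 3.14%, 1.99% and 2.85% of reads in the benzamil libraries, 4.10%, 3.36%, 3.23% and 3.01% in the DMSO libraries, and 2.76% and 3.38% in the untreated libraries. The means were 2.68 ± 0.49% with benzamil, 3.43 ± 0.47% with DMSO (SD, n = 4 each) and 3.07 ± 0.44% untreated (SD, n = 2). The benzamil and DMSO ranges overlapped, since benzamil library 2 lay above DMSO library 4, and both untreated values lay within the range of the other groups. Counting intervals were narrow beside this spread (95% Wilson, 1.93% to 2.05% in benzamil library 3 and 4.06% to 4.14% in DMSO library 1). Mitochondrial 16S ribosomal RNA (mt-Rnr2), which enters the total, took 23.97% to 39.6% of reads with benzamil, 13.5% to 19.3% with DMSO, and 24.2% and 26.3% in untreated skin. With mitochondrial and ribosomal RNA genes left out of the total, the members took 4.25 ± 0.40% with benzamil, 4.74 ± 0.49% with DMSO (SD, n = 4 each) and 4.97 ± 1.00% untreated (SD, n = 2).

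The subunits were nearly balanced in each library. Reads of large over small subunit members were 0.983, 1.08, 0.918 and 0.943 in the benzamil libraries, 1.08, 1.10, 1.10 and 1.04 in the DMSO libraries, and 1.07 and 0.958 in the untreated libraries. The mean ratio was 0.980 ± 0.069 with benzamil, 1.08 ± 0.03 with DMSO (SD, n = 4 each) and 1.01 ± 0.08 untreated (SD, n = 2). Of the 4 benzamil libraries 3 lay below every DMSO library, and the remaining one, library 2, lay within the DMSO range. The order of the groups depended on which members were counted. Without the 5 most abundant members of each subunit, an alternative chosen after seeing the data, the ratio was 1.34 ± 0.16 with benzamil, 1.18 ± 0.03 with DMSO (SD, n = 4 each) and 1.35 ± 0.36 untreated (SD, n = 2).

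What separated the groups more clearly was how evenly the reads were spread over the members. The 10 most abundant members of a library took 47.3%, 46.1%, 57.5% and 61.7% of member reads in the benzamil libraries, 33.4%, 37.4%, 39.1% and 42.8% in the DMSO libraries, and 59.1% and 45.3% in the untreated libraries. Every benzamil and untreated library lay above every DMSO library. The SD of log2 CPM across members was 1.62 to 2.01 with benzamil, 1.18 to 1.41 with DMSO, and 1.83 and 2.16 in untreated skin. The part of depth in this spread of levels was not tested.

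**Figure D1:**
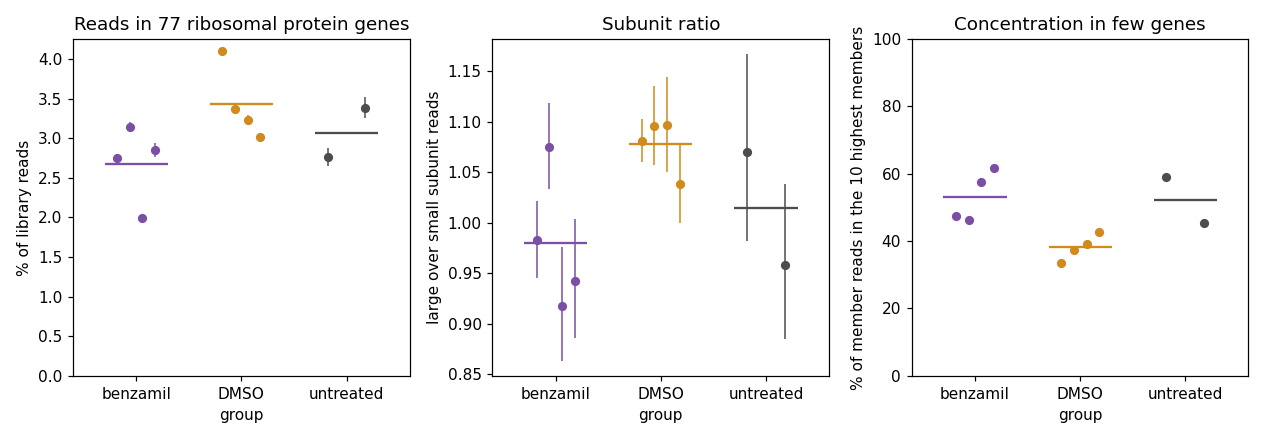
Share of library reads in the 77 members (left, %), ratio of large to small subunit reads (middle) and share of member reads in the 10 most abundant members (right, %) for each library of the benzamil, DMSO and untreated groups. Points are libraries with 95% counting intervals where drawn, bars are group means, and the middle axis does not start at 0. On the right the 4 DMSO libraries (33.4% to 42.8%) lie below the 4 benzamil (46.1% to 61.7%) and the 2 untreated libraries (45.3% and 59.1%).

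Benzamil over DMSO asks what the channel blocker changed in skin that received imiquimod. Of 72 tested members 29 were lower (40.3%) and 4 were higher (5.56%) with benzamil, at an adjusted p under 0.05 (edgeR quasi-likelihood test, Benjamini-Hochberg over all 5245 genes). Over all genes 12.1% were lower and 9.91% higher. The median log2 fold change was -0.55 over the members and -0.01 over all genes. Of the 72 members 55 had a negative value, against 2640 of all 5245 genes. Without DMSO library 1, 11 members were lower (15.7%) and 3 higher (4.29%) of 70 tested, with a median of -0.40, against 7.28% lower and 5.95% higher over all genes. Without benzamil library 3, 18 were lower (25.0%) and 2 higher (2.78%), against 8.41% and 6.09% of all genes. Scaling by total reads alone shifted the all-gene median by -0.26 (log2). It left 1 member higher (1.39%) and 44 lower (61.1%), against 4.73% and 19.2% of all genes.

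With all libraries the lower calls fell on both subunits. The large subunit had 16 lower and 1 higher of 42 tested members, with a median log2 fold change of -0.54. The small subunit had 13 lower and 3 higher of 30, with a median of -0.63. The large subunit had 8 lower and 0 higher of 40 without DMSO library 1, and the small subunit 3 lower and 3 higher of 30 (10% each). Over all genes 7.28% were lower and 5.95% higher in that fit. Most lower calls of the small subunit were thus lost without that library, and its higher calls were as many as its lower calls. Its median log2 fold change was still negative, at -0.49. The values of every benzamil library lay below those of every DMSO library for 22 of the 72 members (30.6%, against 13.4% of all genes), and above them for 6 (8.33%, against 11.1%). Without DMSO library 1 these counts were 22 (30.6%) and 8 (11.1%) of 72 members, against 14.5% and 12.7% of 4888 genes. By library, 39, 29, 54 and 47 of the 72 members lay below the whole DMSO range in benzamil libraries 1 to 4. Above it lay 9, 12, 8 and 17. The share of all genes outside that range in a single library was not counted, so these counts have no background beside them.

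**Figure D2:**
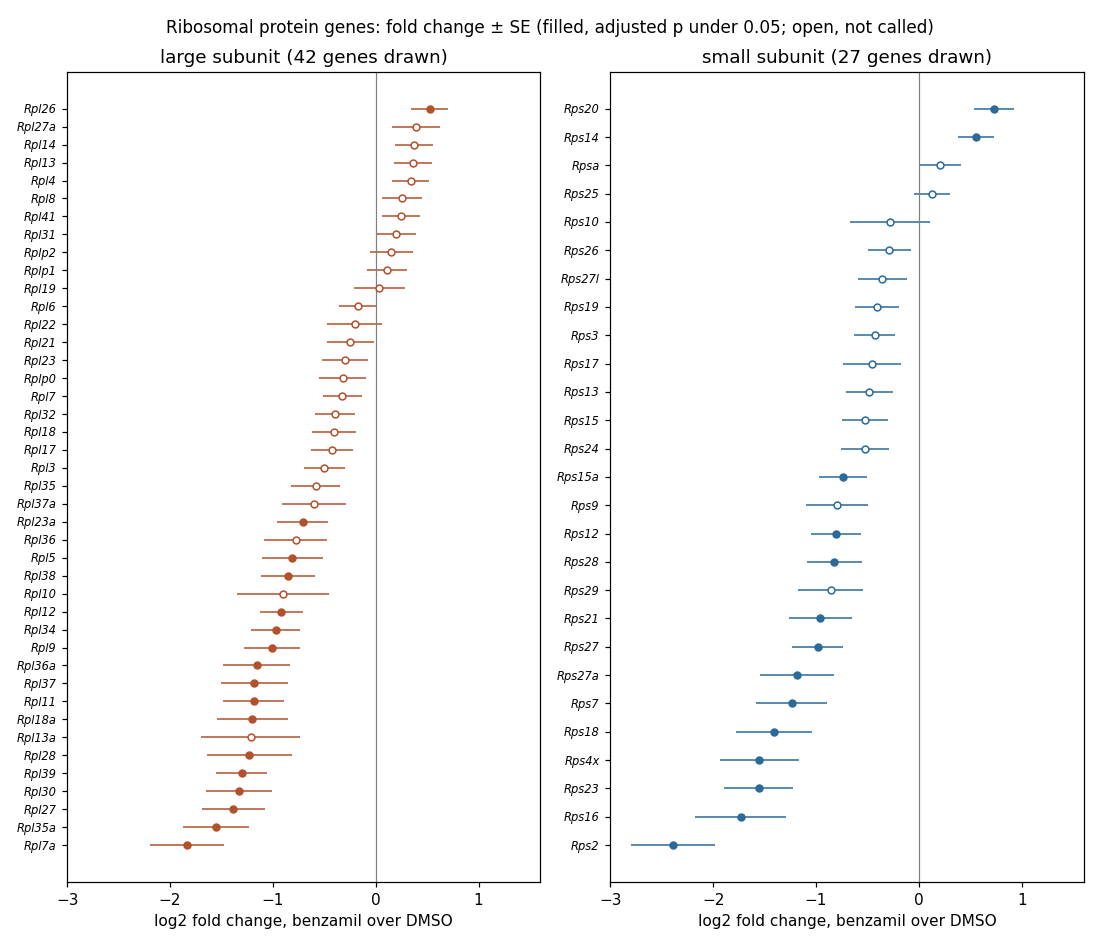
Log2 fold change of benzamil over DMSO, with its standard error, for 42 tested members of the large (left) and 27 of the small subunit (right). Filled points passed an adjusted p under 0.05 and open points did not. Filled points left of 0 number 16 for the large and 12 for the small subunit, and those right of 0 are Rpl26, Rps20 and Rps14.

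The members called higher were among the most abundant, and Rps20, Rps14 and Rpl26 are described here. Rps20, a protein of the small subunit head, had 2232, 2444, 2595 and 3097 CPM with benzamil, 1614, 1526, 1604 and 1494 CPM with DMSO and 3311 and 2714 CPM in untreated skin. The 4 DMSO libraries were the lowest and lay close together, and no benzamil or untreated library reached down to them. The level with benzamil was 1.66-fold that with DMSO (log2 fold change 0.73 ± 0.19 SE, edgeR adjusted p = 0.00824). Rps20 stayed called higher when any one of the 10 libraries was left out, but with total counts alone as the scaling it was not called (log2 fold change 0.46, edgeR adjusted p = 0.116).

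Rps14, whose loss of one copy causes the anaemia of the human 5q deletion syndrome, had 1240.5, 1179, 1201 and 1263 CPM with benzamil, 908, 821, 743 and 844 CPM with DMSO and 1211 and 1172 CPM in untreated skin. Rpl26, a large subunit protein that in human cells also binds the p53 mRNA, had 786, 708, 714 and 849.8 CPM with benzamil, 576, 519, 552 and 472 CPM with DMSO and 1225 and 949 CPM in untreated skin. For both genes the DMSO libraries lay below every library of the other groups. The log2 fold change of benzamil over DMSO was 0.55 ± 0.18 for Rps14 and 0.52 ± 0.18 for Rpl26 (SE), with edgeR adjusted p-values of 0.0269 and 0.0391. Each lost its call when some single libraries were left out, and with total counts alone.

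The largest decrease was that of Rps2, a small subunit protein beside the path by which mRNA enters. Rps2 had 66.7, 33.4, 26.7 and 23.8 CPM with benzamil, 407, 129.7, 132 and 169 CPM with DMSO and 0 and 88.99 CPM in untreated skin. All benzamil libraries lay below all DMSO libraries, DMSO library 1 was far above the rest, and untreated library 1 held no read. The level was 5.24-fold lower with benzamil (log2 fold change -2.39 ± 0.41 SE, edgeR adjusted p = 0.000199). Without DMSO library 1 it was 3.41-fold lower (log2 fold change -1.77, edgeR adjusted p = 0.00146).

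Rpl7a, a large subunit protein whose gene carries small nucleolar RNAs in its introns, had 36.4, 60.1, 13.3 and 23.8 CPM with benzamil, 212, 124, 88.3 and 88.8 CPM with DMSO and 0 and 14.8 CPM in untreated skin. All DMSO libraries lay above all others, and the untreated pair, at or near 0, reached into the bottom of the benzamil range. The fold change was 3.57-fold lower with benzamil (log2 -1.83 ± 0.36 SE, edgeR adjusted p = 0.000801). Its start carries the longest C or T run of the 7 shown.

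Rpl39, an X-linked protein at the tunnel by which the new peptide leaves, had 264, 280.5, 107 and 143 CPM with benzamil, 656, 573, 434 and 399.7 CPM with DMSO and 162 and 252 CPM in untreated skin. The DMSO libraries were all above the rest, and the untreated libraries lay within the benzamil range. Rpl39 was 2.47-fold lower with benzamil (log2 fold change -1.30 ± 0.25 SE, edgeR adjusted p = 0.000502).

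Rps18, a protein of the small subunit head that contacts the large subunit, had 158, 150.2, 26.7 and 15.9 CPM with benzamil, 389.6, 311, 202 and 175 CPM with DMSO and 13.5 and 148 CPM in untreated skin. Benzamil libraries 3 and 4 were far below libraries 1 and 2, and the untreated pair was split in the same manner. Even so the DMSO libraries lay above all others, and the log2 fold change was -1.41 ± 0.37 (SE, edgeR adjusted p = 0.00803). DESeq2 did not call Rps18 (log2 fold change -1.65, adjusted p = 0.142).

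Of the other members among the most reduced, Rps23 lies beside the decoding centre, and changes in human RPL35A and RPL27 cause Diamond-Blackfan anaemia. The log2 fold changes were -1.73 for Rps16, -1.56 for Rps23, -1.56 for Rpl35a, -1.55 for Rps4x, -1.39 for Rpl27 and -1.33 for Rpl30. Rps23 had 24.3, 50.1, 60.04 and 39.7 CPM with benzamil against 189, 103, 99.3 and 77.7 CPM with DMSO. Rpl35a had 42.5, 26.7, 26.7 and 39.7 CPM with benzamil against 132, 113, 62.5 and 80.5 CPM with DMSO. For both genes no library of one group reached the range of the other. Leaving out any single library kept 11 of the 29 lower calls, namely Rps2, Rpl7a, Rpl39, Rps18, Rps23, Rpl35a, Rpl27, Rpl30, Rpl11, Rpl12 and Rpl34. Of these 11, Rps18 was the one that DESeq2 did not call.

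**Figure D3:**
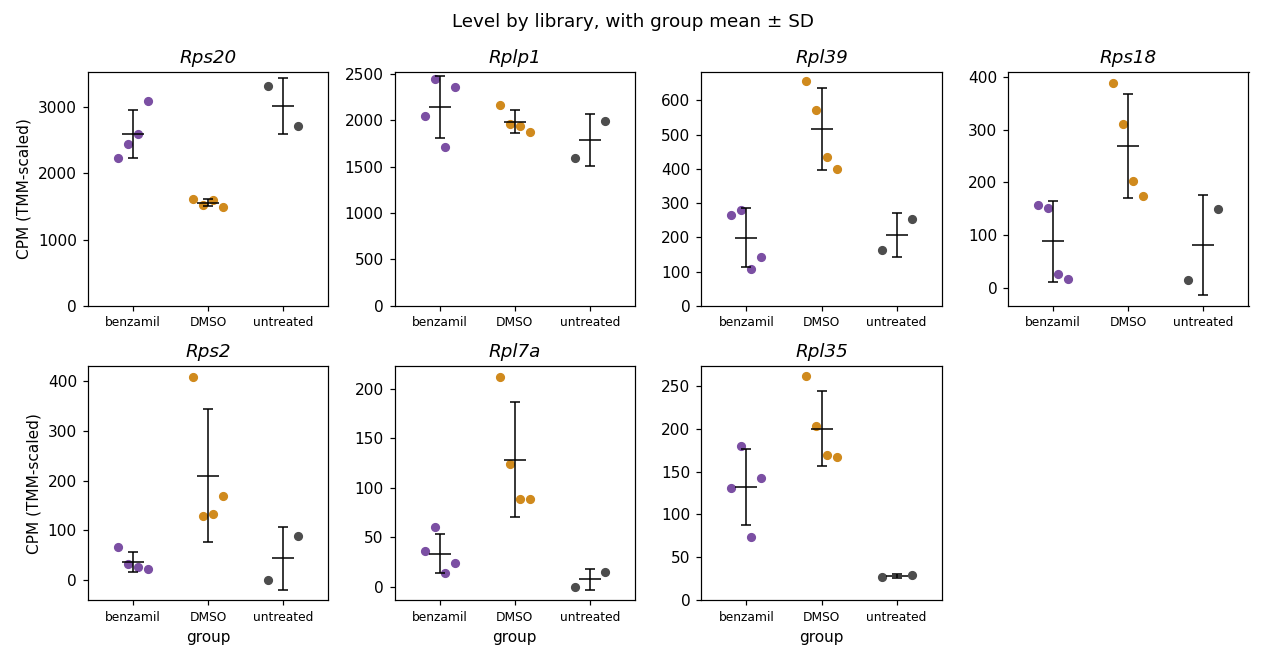
CPM in each library for 7 members (panels), with the group mean and SD in black. In Rps20 every benzamil point is above every DMSO point, in Rplp1 the groups overlap, in Rpl39, Rps18, Rps2 and Rpl7a every DMSO point is above every benzamil point, and in Rpl35 both untreated points are below all others.

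Functional groups of the ribosome were read in the same fit. The P-stalk, the flexible arm that recruits elongation factors, had 0 calls among its 3 proteins in edgeR, 0 at an unadjusted p under 0.05 and 0 in DESeq2. Rplp1 had 2041, 2447, 1714 and 2359 CPM with benzamil, 2161, 1956, 1939 and 1877 CPM with DMSO and 1588 and 1987 CPM in untreated skin, so the groups overlapped. The log2 fold change of benzamil over DMSO was 0.11 ± 0.19 for Rplp1, 0.15 ± 0.21 for Rplp2 and -0.32 ± 0.23 for Rplp0 (SE, edgeR adjusted p = 0.723, 0.651 and 0.332).

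Rpl11 and Rpl5, which together with 5S ribosomal RNA bind the p53 regulator Mdm2 when assembly fails, were both lower with benzamil. Rpl11 had 173, 274, 113 and 71.5 CPM with benzamil, 508, 365, 364 and 297 CPM with DMSO and 40.4 and 282 CPM in untreated skin. The benzamil libraries lay below all DMSO libraries, and the untreated pair ranged widely. The log2 fold change was -1.19 ± 0.30 for Rpl11 and -0.81 ± 0.30 for Rpl5 (SE, edgeR adjusted p = 0.00578 and 0.0486), and the Rpl5 ranges overlapped. In DESeq2 1 of the 2 was called, and without DMSO library 1 Rpl11 was called in edgeR and Rpl5 was not (adjusted p = 0.237).

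Rps27a, which is made as a fusion with ubiquitin, had 143, 107, 66.7 and 15.9 CPM with benzamil and 342, 208, 173 and 105 CPM with DMSO, and its log2 fold change was -1.19 ± 0.36 (SE, edgeR adjusted p = 0.0198). The highest benzamil library lay above the lowest DMSO library, and neither DESeq2 nor edgeR without DMSO library 1 called the gene. Of 4 X-linked members 3 were lower, with log2 fold changes of -1.55 for Rps4x, -1.30 for Rpl39 and -1.16 for Rpl36a, while Rpl10, which joins the large subunit late, was at -0.90 ± 0.45 (SE, edgeR adjusted p = 0.149). Rpl39 was still called without DMSO library 1, and Rps4x and Rpl36a were not (edgeR adjusted p = 0.0682 and 0.0891). The paralog Rps27l, a p53 target in human cells, had a log2 fold change of -0.35 ± 0.23 (SE, edgeR adjusted p = 0.29).

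The most abundant members were mostly not called. In the large subunit Rpl13, Rpl14, Rpl4, which lines the peptide exit tunnel, and Rpl8, which lies by the peptidyl transferase centre, had log2 fold changes of 0.36, 0.37, 0.34 and 0.26. Rpl13 had 1374, 1479, 1348 and 1684 CPM with benzamil, 1049, 1137, 1152 and 1249 CPM with DMSO and 2032 and 1824 CPM in untreated skin. Its groups formed separate ranges with DMSO the lowest, although the edgeR adjusted p was 0.167. In the small subunit Rps24 had a log2 fold change of -0.52 ± 0.23 (SE, edgeR adjusted p = 0.107).

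Change with benzamil followed the level of a member. Over the 72 members the Spearman correlation of mean CPM with log2 fold change was 0.67, against 0.09 over all 5245 genes; points share the same 10 libraries, and low counts enter both measures. The 24 most abundant members (398 CPM and above) had a median log2 fold change of 0.12, with 4 higher and 4 lower. The 24 in the middle (162 to 396 CPM) had a median of -0.51, with 0 higher and 9 lower. The 24 least abundant (21.7 to 159 CPM) had a median of -1.22, with 0 higher and 16 lower. The 192 other genes at or above the lowest level of the abundant members had a median of 0.09, with 46 higher and 25 lower. Other genes at the levels of the middle and least abundant members were not counted. Over all genes 9.91% were higher and 12.1% lower. With DMSO library 1 left out, the most abundant members had 3 higher and 1 lower, and those in the middle 0 higher and 3 lower. The least abundant had 0 higher and 7 lower of 22 tested. The 192 other genes had 43 higher and 21 lower, and over all genes 5.95% were higher and 7.28% lower. With every library thinned to 71144 reads, 58 members were tested, of which 3 were higher (5.17%) and 14 lower (24.1%), and the median was -0.43. Over the 1624 genes tested in that fit 8.81% were higher and 8.87% lower.

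**Figure D4:**
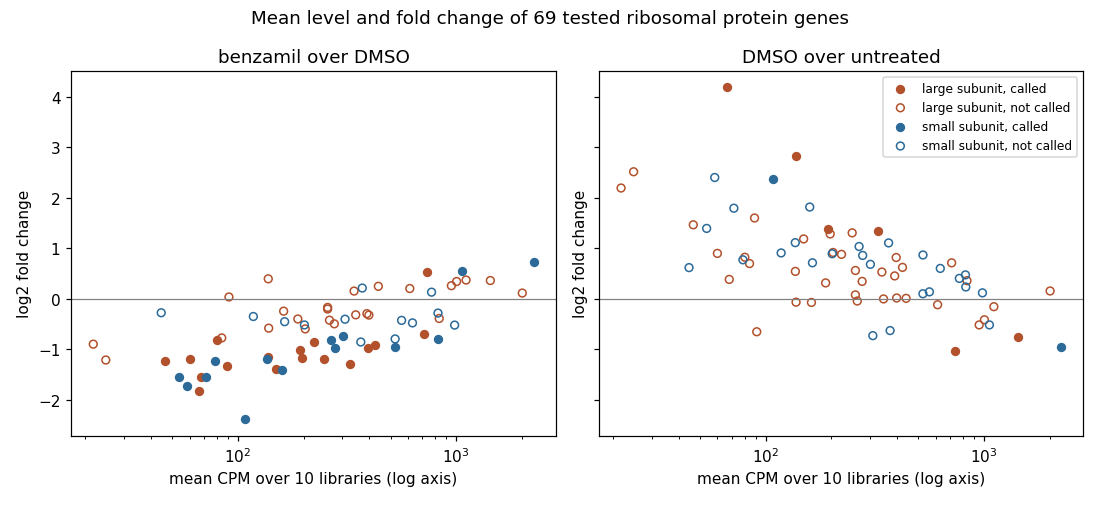
Mean CPM over 10 libraries (log axis) against log2 fold change for 69 tested members, for benzamil over DMSO (left) and DMSO over untreated (right), with large subunit members in orange and small subunit members in blue. Filled points were called. On the left most of the less abundant members lie below 0 and the more abundant ones around it, and on the right most of the less abundant lie above 0 and the more abundant ones around it.

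Medians differed less by gene structure than by level. The 77 genes lie on 19 chromosomes. Small nucleolar RNA genes lie inside 29 members, which had a median log2 fold change of -0.50 with 2 higher and 12 lower, against -0.58 with 2 higher and 17 lower for the 43 other tested members. Near-identical copies (at least 97% identity over at least 100 of the last 300 bases) exist for 54 of the 77 members, up to 36 for Rpl21, so reads may be shared or lost between a member and its copies. The 50 tested members with a copy had a median of -0.65 with 3 higher and 21 lower, and the 22 without one a median of -0.48 with 1 higher and 8 lower. With DMSO library 1 left out, the lower calls were 5 of 27 members with small nucleolar RNA genes and 6 of 43 others, and 8 of 49 members with a copy and 3 of 21 without one. The 22 measured genes that are named as copies held 1088 reads, 1.06% of the 102194 reads of the members.

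DMSO over untreated sets inflamed skin against skin that received no agent. Of 72 members 5 were higher (6.94%) and 3 lower (4.17%) with DMSO, against 9.93% higher and 8.45% lower over all genes. The share of members called higher depended on the fit: it was 22.2% in limma (20.2% of all genes), 23.4% with no filter on low counts (7.24%) and 33.3% with a replicate block (10.4%). The median log2 fold change was 0.61 over the members and 0.18 over all genes, and 55 members were positive, against 2961 of all 5245 genes. Much of this rested on the untreated pair, of which library 1 had the lower CPM for 58 members. Without untreated library 2 the median over the members was 1.25. A fit without either untreated library leaves 1 in that group, so its calls are not counted here. Without DMSO library 1 there were 3 higher and 3 lower (4.29% each), against 8.51% higher and 7.24% lower over all genes. Scaling by totals without mitochondrial and ribosomal RNA shifted the all-gene median by -0.15 (log2), after which 4 members were higher and 6 lower.

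The higher members were Rpl35, Rpl7a, Rpl39, Rps2 and Rpl9. Rpl35, a protein at the exit of the peptide tunnel, had 261, 203, 169 and 167 CPM with DMSO and 26.9 and 29.7 CPM in untreated skin. The untreated values are 2 reads in each library. All DMSO libraries were far above both untreated ones, and the benzamil libraries, at 130.4, 180.3, 73.4 and 143 CPM, lay between or overlapped DMSO. The log2 fold change was 2.83 ± 0.58 (SE, edgeR adjusted p = 0.00136), and the call held when any one treated library was left out. With any one library left out, untreated ones included, the log2 fold change was 2.65 to 3.01. Of the other calls, higher or lower, those of Rps2, Rpl9 and Rpl13 were lost without DMSO library 1.

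Rpl7a had 306 reads with DMSO and 1 read in untreated skin, a ratio of 22.1 after scaling by library total and TMM factor (95% counting interval 3.93 to 875). The log2 fold change was 2.37 ± 0.76 for Rps2, 1.34 ± 0.38 for Rpl39 and 1.38 ± 0.47 for Rpl9 (SE), with edgeR adjusted p-values of 0.0293, 0.0159 and 0.0432. Rps16, Rpl13a, Rpl10 and Rpl29 had 1 to 3 untreated reads in all, and Rps16 had a ratio of 6.18 (95% counting interval 2.09 to 30.2).

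The lower members were Rpl26, Rps20 and Rpl13, whose values in each library are given above. The log2 fold change of DMSO over untreated was -1.04 ± 0.23 for Rpl26, -0.95 ± 0.23 for Rps20 and -0.75 ± 0.23 for Rpl13 (SE), with edgeR adjusted p-values of 0.00259, 0.00615 and 0.0229. In each of them both untreated libraries lay above all DMSO libraries. Here too the change ran with level, in the opposite direction (Spearman -0.68 over members, -0.03 over all genes). DMSO libraries enter both comparisons, so their values are not independent.

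Benzamil over untreated left few calls. Of 72 members 1 was higher (1.39%) and 1 lower (1.39%), against 2.44% and 1.56% over all genes, with a median log2 fold change of -0.01 over the members and 0.17 over all genes. Rpl35 was higher by 2.25 ± 0.62 on the log2 scale (SE, edgeR adjusted p = 0.0378), against 2 reads in each untreated library. Rps19, the protein most often changed in human Diamond-Blackfan anaemia, had 224, 277, 187 and 206 CPM with benzamil, 399, 303, 265 and 225 CPM with DMSO and 444 and 564 CPM in untreated skin. Both untreated libraries were above all others, and the log2 fold change of benzamil over untreated was -1.14 ± 0.29 (SE, edgeR adjusted p = 0.0246). The Rpl35 call was lost without benzamil library 1, 2 or 4, and the Rps19 call without benzamil library 3. With any one library left out, untreated ones included, the log2 fold change was 2.04 to 2.42 for Rpl35 and -1.27 to -0.87 for Rps19. Both calls rest on 2 untreated libraries. In group means, DMSO was above both other groups for 51 of 72 members, below both for 13 and between them for 8. These are 70.8%, 18.1% and 11.1%, against 39.2%, 32.2% and 28.6% of all genes tested. The means include DMSO library 1, the highest of its group for 66 members, and this order was not counted without it.

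**Figure D5:**
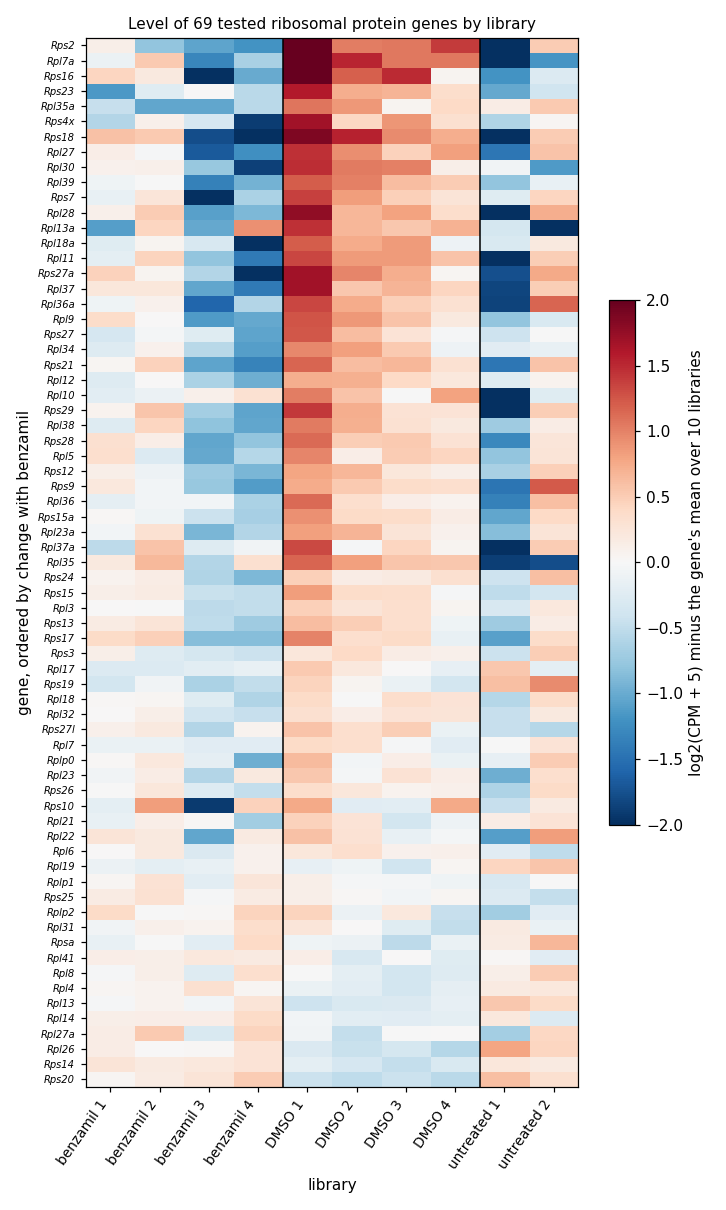
Each of the 69 rows is a tested member, ordered by its log2 fold change of benzamil over DMSO, and each column a library; colour gives log2(CPM + 5) minus the gene's mean over the 10 libraries. Most upper rows are red in the DMSO columns, most strongly in DMSO library 1, and the lowest rows, ending in Rps20, are red in most benzamil columns and blue in most DMSO columns.

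Of the 77 members, 5 were too low to test. Rps6, the small subunit protein phosphorylated downstream of mTOR, had 2 reads with benzamil, 45 with DMSO and 0 in untreated skin. Rps4l had 10 with benzamil, 33 with DMSO and 0 untreated, and Rpl29 had 11, 72 and 2 reads in the same groups. Rpl15 had 7 with benzamil, 42 with DMSO and 0 untreated, and Rpl10a had 25 with benzamil, 49 with DMSO and 0 untreated. These are raw reads of groups that differ in depth. Mean CPM with benzamil and with DMSO was 3.65 and 19.3 for Rps6, 8.80 and 14.9 for Rps4l, and 11.8 and 26.4 for Rpl29. It was 9.42 and 18.4 for Rpl15, and 26.1 and 21.8 for Rpl10a, which was thus not lower with benzamil. All were below 20 CPM on average, a level that the untreated libraries could hardly detect.

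Related genes that the rule leaves out were set beside the members. In benzamil over DMSO 12.1% of all genes were lower and 9.91% higher. Of 6 further cytosolic ribosomal protein genes tested, 3 were lower with benzamil than with DMSO, by log2 fold changes of -1.68 for Rpl22l1, -1.16 for Rps3a1 and -0.63 for Rack1, the scaffold on the small subunit head. Of 17 elongation factor and other TOP genes 7 were lower (41.2%) and 2 higher (11.8%), with a median of -0.28. The 3 with the largest change were Cct4, a chaperonin subunit (-2.22), Eif3e, an initiation factor subunit (-1.69), and Tpt1 (-1.44). Both higher genes, Eef1a1 and Eef2, are elongation factors. Of 22 ribosome biogenesis genes 10 were lower (45.5%) and 0 higher, with a median of -0.61, led by Nip7 (-2.09), Nop10 (-1.91) and Rrs1 (-1.57). Of 10 growth and ribosome regulators 0 were called in edgeR, 2 had an unadjusted p under 0.05 and 0 were called in DESeq2. Of 49 mitochondrial ribosomal protein genes 3 were lower (6.12%, below the share of all genes) and 0 higher, with a median of -0.13. Leaving out DMSO library 1, the lower calls were 0 of the 6 further genes, 5 of the TOP genes (29.4%), 6 of the biogenesis genes (27.3%) and 1 of 43 mitochondrial genes (2.33%). Over all genes 7.28% were lower in that fit. In DMSO over untreated 3 of 17 TOP genes (17.6%), 3 of 22 biogenesis genes (13.6%), 2 of 10 regulators (20%) and 6 of 49 mitochondrial genes (12.2%) were higher, counts of a few genes beside 9.93% of all genes, and none of these lists had a lower call in edgeR. DESeq2 called 3, 0, 0 and 2 genes of these lists in that comparison.

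The genes outside the set whose log2 CPM over the 10 libraries was most like the mean of the tested members were Cox8a, Vdac2, Ndufb1, Eif3i and Cs, with Pearson correlations of 0.97, 0.97, 0.96, 0.96 and 0.95. These are descriptions over libraries that share group and depth.

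Markers of other cell types differed between the groups for some lists and overlapped for others. The summed CPM of 8 inflamed keratinocyte genes was 2048 to 11571 with benzamil, 21930 to 32686 with DMSO, and 311 to 404 in untreated skin. That of 9 suprabasal genes was 51943 to 67778 with benzamil, 17905 to 36009 with DMSO, and 15263 and 19770 untreated. Skeletal muscle genes summed to 747 to 1689 CPM with benzamil, 194 to 1251 with DMSO, and 3085 and 3499 untreated, and fibroblast genes to 754 to 2343 CPM with benzamil, 584 to 1140 with DMSO, and 8469 and 19261 untreated. Neutrophil genes, 3 of 8 measured, summed to 20.01 to 56.8 CPM with benzamil, 58.9 to 123.6 with DMSO, and 0 and 13.5 untreated. Of the 3 neutrophil genes 2 were at 0 in untreated skin. Macrophage and dendritic cell genes, 7 of 8 measured, summed to 53.4 to 222 CPM with benzamil, 151 to 167 with DMSO, and 215 and 222 untreated. Sebaceous gland genes summed to 4938 to 8482 CPM with benzamil, 1794 to 3428 with DMSO, and 6259 and 8991 untreated. Basal keratinocyte genes summed to 15219 to 17901 CPM with benzamil, 15482 to 19791 with DMSO, and 11791 and 13635 untreated. T cell genes, 2 of 8 measured, summed to 103.2 to 123.5 CPM with benzamil, 91.97 to 105.98 with DMSO, and 161.5 and 163.1 untreated. Red blood cell genes summed to 20.01 to 230.5 CPM with benzamil, 40.5 to 301.3 with DMSO, and 67.3 and 103.8 untreated. Between benzamil and DMSO the inflamed and suprabasal keratinocyte, neutrophil and sebaceous gland sums did not overlap, and the other sums did. The neutrophil sums came close, at 56.8 and 58.9 CPM. By gene, edgeR called 8 of 11 tested skeletal muscle genes higher with benzamil, and DESeq2 called 1. In edgeR 3 of 8 basal and 4 of 9 suprabasal genes were higher and 0 lower, against 9.91% of all genes higher. Negative log2 fold changes were found for 2 basal and 3 suprabasal genes. Of B cell and endothelial markers 0 were measured. The part of these markers, of depth and of mt-Rnr2 in the members' changes was not tested.

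In the authors' deposited table for benzamil over DMSO, 4 of the 77 members were higher (5.19%) and 25 lower (32.5%) at an adjusted p under 0.05, against 3.52% and 4.56% of the 10653 genes listed. The authors' deposited table for the other contrast, coded as untreated over DMSO, had 3 higher (3.90%) and 6 lower (7.79%), against 3.68% and 3.30% of 9820 genes, and for 3 members it gave no adjusted p.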

How the data were processed

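RNA was measured in 10 libraries of mouse skin, 4 with benzamil, 4 with DMSO and 2 untreated. Per the labels' protocols, 500 ng of RNA entered a Lexogen 3′ mRNA kit with molecular identifiers, sequenced with a 150-cycle MiSeq kit. The tools were STAR, featureCounts and DESeq2 on mm10, per the submitters' processing notes. Tool versions were not given in the sources used here. Neither is the collapsing of identifiers stated, so intervals cover counting error only. The authors deposited 2 tables of variance-stabilised log2 values. In 2 further deposited result tables of DESeq2, each gene has a mean signal, that is its size-factor-normalized counts averaged, a log2 fold change and SE, the Wald statistic (a score), and raw and adjusted p-values. A deposited table of counts carries 61533 human and 0 mouse identifiers and entered no comparison.

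The log2 values were inverted to reads: 100% came out whole within 0.001, and 39116 of 39116 DMSO values shared by the tables were equal. On simulated data 40000 of 40000 values were returned. The 9779 genes in both tables were joined, leaving out 874 and 41. The 10 libraries were fitted together in edgeR 4.0.16 under R 4.3.3 (mean per group, TMM, filterByExpr), which kept 5245 genes, and a gene was called at an adjusted p under 0.05. In edgeR on simulated reads of 5245 genes, benzamil over DMSO recovered 65 of 100 genes changed 2-fold and 98 of 100 changed 4-fold. DMSO over untreated recovered 13 and 81. The changed genes were drawn only from genes above a minimum mean CPM, so these rates do not cover the least abundant members. Alternatives were other scalings, no filter, DESeq2 1.42.0, limma 3.58.1 on the log2 values, 2 groups only, thinned reads, a replicate block and leaving out each library. Coordinates and near-identical copies come from GENCODE M21, in which all 77 members were found. Promoters come from RefSeq (GRCm38.p6).

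The members and lists were chosen with earlier results of these data known, so no list was tested. Named members are up to 10 called in each direction and comparison by size of change, the 5 most abundant of each subunit and those of the P-stalk, 5S, ubiquitin, X-linked and paralog lists. Some members are counted but not reported here by name or drawn.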

Additional observations from a re-analysis of the deposited data

Results flagged for a closer look

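Groups of 4 libraries, benzamil or DMSO, were examined by Dixon's gap criterion for the named members, the members' share of reads and the subunit ratio, 66 in all. In 4 of them one library lay far from the other 3, and chance gives this in about 5% of groups. Rps2 had 407 CPM in DMSO library 1, against 129.7 to 169 CPM in the other DMSO libraries. Rpl14 had 1056 CPM in DMSO library 1, against 934 to 955 CPM in the others. Rpl14 had 1429.5 CPM in benzamil library 4, against 1195 to 1207 CPM in the other benzamil libraries. Rpl4 had 1247 CPM in benzamil library 3, against 1016 to 1045 CPM in the others. Without DMSO library 1, the Rps2 decrease with benzamil was still called in edgeR, with a log2 fold change of -1.77 against -2.39 with all libraries.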

How the results depend on the processing

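Among 99 single-gene results under 1805 alternatives in all, 1675 kept their side of the threshold, 77 lost and 53 gained a call. Of the calls, 0 turned to the opposite direction. Results that were not called could change sign, as Rplp2 did in benzamil over DMSO (log2 fold change 0.15, and -0.11 with thinned libraries). For benzamil over DMSO (29 members lower, 4 higher), thinned libraries gave 14 lower of 58 tested, total counts alone 44 lower and 1 higher, and no filter 2 higher. Leaving out one library gave 11 to 34 lower and 2 to 4 higher. For DMSO over untreated (5 higher, 3 lower), thinning gave 3 higher and 5 lower, limma 16 higher, no filter 18 higher, and totals without mitochondrial and ribosomal RNA 6 lower. Leaving out one library gave 1 to 17 higher and 0 to 3 lower, and a median log2 fold change of 0.31 to 1.25. For benzamil over untreated (1 higher, 1 lower), DESeq2, thinning, 2 groups only and both total count scalings gave 0 higher. No filter gave 0 lower, and leaving out one treated library 0 to 1 of each. The cause of these shifts was not tested. Without mitochondrial and ribosomal RNA in the total, the members' share was 4.25% with benzamil, 4.74% with DMSO and 4.97% untreated. Leaving out one member of each subunit gave a large over small ratio of 1.09 with benzamil, 1.07 with DMSO and 1.07 untreated, so that benzamil was no longer below DMSO. Leaving out the 5 most abundant of each gave 1.34 with benzamil, 1.18 with DMSO and 1.35 untreated, and adding the genes outside the rule gave 0.914 with benzamil, 0.985 with DMSO and 0.943 untreated.

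Deviations from the group mean in same-numbered DMSO and benzamil libraries correlated by 0.07, 0.00, 0.04 and 0.07. These values show no pairing by replicate number but cannot exclude it, since many genes have low counts. With a replicate block, benzamil over DMSO gave 30 lower and 3 higher, DMSO over untreated 24 higher, and benzamil over untreated 0 lower. In the untreated libraries 1 read was worth 13.5 and 14.8 CPM after TMM scaling.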
